A study of Mus musculus with 26 samples.

Results

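The genes examined were 9 transcription factors of naive and stem-like T cells, namely Tcf7, Lef1, Foxo1, Foxo3, Foxp1, Bach2, Satb1, Id3 and Myb. They were chosen by name, out of 35865 genes to which the deposited transcripts could be assigned, with earlier results of these data known. All 9 passed the filter on low counts in both sets of libraries tested (14600 genes in 11 libraries and 15449 genes in 14 libraries).

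The factors were measured by RNA sequencing in TCR_Tg101_, CD8+ T cells whose transgenic receptor recognizes an antigen on C1498 cells, a leukemia line of mouse origin. Per the labels, every group came from 6 week old C57BL/6 mice with the genotype given as wild type, and per the study's methods the Tg101 line carried a Rag2-/- background. Cells sorted by FACS (fluorescence-activated cell sorting) gave 3 control libraries from spleen (2 of naive cells at day 0 and 1 from untreated, leukemia-free mice at day 18), 1 library of undivided cells that kept their CTV dye from spleens of leukemia-bearing mice at day 18, 3 spleen libraries of leukemia-bearing mice (2 at day 7 and 1 at day 14) and 7 liver libraries of leukemia-bearing mice (2 early at day 7, 3 mid at days 13 and 14, 2 late at days 16 and 18). Per the methods, naive TCR_Tg101_ were transferred 1 day before intravenous injection of C1498 cells. The cells are 1 T cell clone in specificity, and a library may hold cells pooled from several mice, which the labels do not say. All controls were from spleen, and 2 of the 3 were of day 0. In each comparison of liver with control the tissue and the leukemia therefore changed together. Against those 2 controls the day changed too, and the parts of tissue, leukemia and day cannot be told apart.

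TCF1 (the product of Tcf7) and LEF1 are HMG-box proteins that bind the same DNA motif and keep naive CD8+ T cells and the self-renewing fraction of memory and exhausted cells in place. FOXO1 and FOXO3 are forkhead factors that leave the nucleus when antigen receptor and cytokine signals activate AKT, and FOXO1 drives homing and survival genes of resting cells. FOXP1, BACH2 and SATB1 restrain activation or organize chromatin in resting cells, ID3 blocks E proteins and marks memory precursors, and MYB is used both by dividing progenitors and by stem-like exhausted cells.

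Tcf7 and Lef1 each have alternative starts, which the transcript counts described below refer to, and the sequences around the starts are shown so that these can be told apart. They are from the RefSeq promoter table of GRCm38.p6, which matched all 9 genes (19 entries among 32851 promoters), in the direction of transcription, and end 25 bases into the transcript. Apart from the upstream Tcf7 start, these RefSeq starts lie upstream of the GENCODE starts given with the transcript counts. Capitals mark matches to 4 motifs, searched on both strands: GTAAACA for FOXO factors, CTTTGAA for TCF and LEF factors, AACNGNC for MYB and TGANTCA for BACH and AP-1 factors.
Tcf7 upstream start, chr11:52282990-52283124 (minus strand): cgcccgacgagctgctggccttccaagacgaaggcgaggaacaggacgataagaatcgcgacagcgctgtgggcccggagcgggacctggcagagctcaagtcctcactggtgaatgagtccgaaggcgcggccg
Tcf7 downstream start, chr11:52282571-52282705 (minus strand): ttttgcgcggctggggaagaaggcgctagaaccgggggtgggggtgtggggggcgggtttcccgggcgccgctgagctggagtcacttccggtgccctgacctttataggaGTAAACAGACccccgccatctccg
Lef1 upstream start, chr3:131110187-131110321 (plus strand): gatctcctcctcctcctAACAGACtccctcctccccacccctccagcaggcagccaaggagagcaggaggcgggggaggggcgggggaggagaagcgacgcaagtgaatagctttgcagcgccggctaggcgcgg
Lef1 downstream start, chr3:131112681-131112815 (plus strand): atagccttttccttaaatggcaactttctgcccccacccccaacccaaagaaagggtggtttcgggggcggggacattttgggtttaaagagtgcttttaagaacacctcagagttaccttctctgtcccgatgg
The downstream Tcf7 start has a FOXO match just after it that overlaps a MYB match, so that 1 capital run covers both, and the upstream Lef1 start has a MYB match before it. Of the 32851 promoters, counted over their full windows of the same length, 3.65% hold the FOXO motif, 5.14% the TCF and LEF motif, 32.8% the MYB motif and 7.81% the BACH and AP-1 motif. Among the 9 genes the FOXO motif was also in a promoter of Myb, the TCF and LEF motif was in 1 promoter of Foxp1, the MYB motif was in 10 of the 19 promoters (7 genes), and the BACH and AP-1 motif was in none of the 19 windows. A match describes letters only, and no binding was measured.

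Library totals were 22918996 to 71358287 estimated counts (median 34349319), and the 9 genes had 290 to 92439 counts in a library, so the number of libraries rather than counting limited precision. The p-values measure the spread between libraries, which the labels do not tie to separate mice. Gene positions are from GENCODE vM21 on GRCm38. Levels are given as CPM (counts relative to library size, with TMM factors over 14 libraries) for comparing libraries, and as the deposited TPM where genes are compared with each other. Markers of T cells were high in all 14 libraries (summed 4800 to 10600 CPM over 9 genes). Erythroid marker genes summed to 2510 and 10100 CPM in the 2 day 0 controls and to 1.12 to 104 CPM elsewhere. Myeloid markers summed to 499 and 106 CPM in the same 2 controls and to 5.27 to 50.5 CPM elsewhere, and hepatocyte markers to 0.0599 to 0.747 CPM in controls, 2.41 to 155 CPM in mid and 64.2 to 265 CPM in late libraries. Summed proliferation markers were 175 to 273 CPM in controls, 998 to 2760 CPM in mid and 1850 to 2850 CPM in late libraries. These moved with the comparisons below, and their part in the results was not tested. In bulk RNA, fewer cells that express a gene and less RNA per cell cannot be told apart.

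Compared per transcript length in control cells, Tcf7 was the most abundant of the 9 (mean 604 TPM, range 354 to 781), followed by Foxp1 (mean 327, 148 to 456), Lef1 (mean 291, 212 to 356) and Satb1 (mean 252, 192 to 297). These ranges overlapped between neighbours in the order. Id3 was at a mean of 80.6 TPM (52.0 to 137), Foxo1 at 46.2 (35.6 to 57.2) and Bach2 at 38.0 (27.9 to 52.4), also with overlap. Myb (mean 5.08 TPM, 4.54 to 5.76) and Foxo3 (mean 3.80 TPM, 2.93 to 5.31) were the lowest and lay below every control value of the other 7 genes.

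In late liver against control, 4 of the 9 fell (Satb1, Foxo1, Lef1 and Foxp1) and Myb rose at an adjusted p under 0.05, in the quasi-likelihood test of edgeR (p-values adjusted by the Benjamini-Hochberg method). Over all 14600 genes, 17.7% fell and 19.8% rose in that comparison. In mid liver against control the 4 that fell were the same genes, and none of the 9 rose in edgeR, beside 13.9% of all genes lower and 17.3% higher. DESeq2 also called Myb and Id3 higher, in mid and in late liver, where it called 20.9% (mid) and 23.0% (late) of all genes higher. The median log2 fold change of the 9 was -0.87 in late and -0.71 in mid liver, where that of all genes tested was -0.03 and -0.06. Scaling by library totals alone moved the median of all genes by -0.29 (late) and -0.19 (mid) and turned the split of all calls from 2897 higher and 2579 lower to 1892 and 3753 (late) and from 2532 and 2033 to 1777 and 2919 (mid). Under that scaling the falls of Tcf7 and Bach2 also passed the threshold, in both comparisons, and no direction among the 9 changed in either.

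**Figure D1:**
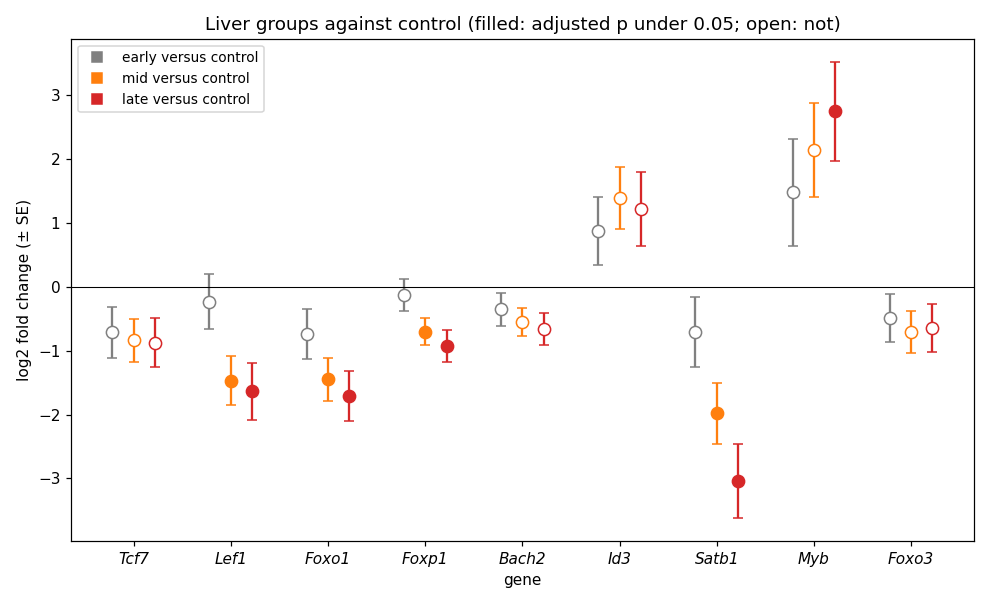
Log2 fold change (y axis, bars ± SE) of each gene (x axis) in early, mid and late liver against the 3 control libraries, from edgeR's model of 11 libraries, with filled points for an adjusted p under 0.05. Satb1 falls furthest (-1.98 in mid and -3.04 in late liver), Myb and Id3 lie above 0 and the other 7 genes lie below 0 in all 3 comparisons.

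Lef1 encodes the second TCF family member of naive T cells. It measured 585, 770 and 813 CPM in the 3 control libraries, 232, 357 and 201 CPM in the mid liver libraries and 231 and 222 CPM in the late liver libraries. Every mid and late library lay below every control library. The log2 fold change was -1.47 ± 0.38 (SE) in mid liver (adjusted p = 0.0269) and -1.64 ± 0.45 in late liver (adjusted p = 0.0252), with the late mean 3.19-fold below the control mean.

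Tcf7, which encodes TCF1, differed less. Its levels were 1067, 1806 and 1421 CPM in control, 578, 1015 and 846 CPM in mid and 651 and 815 CPM in late libraries. All 5 liver libraries lay below the lowest control, which the highest mid library came close to. The log2 fold change was -0.84 ± 0.34 in mid liver (adjusted p = 0.0829) and -0.87 ± 0.39 in late liver (adjusted p = 0.102), which did not pass the threshold, and in late liver 23.8% of all tested genes had a lower log2 fold change. The mean was 733 CPM in late liver. In TPM its late mean of 238 was the highest of the 9, but in late replicate 1 Id3 was higher (213 against 147 TPM).

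Foxo1 (chromosome 3, 52268336 to 52353221, plus strand), the forkhead factor upstream of Il7r and Klf2, measured 385, 523 and 384 CPM in control libraries, 115, 200 and 175 CPM in mid and 104 and 153 CPM in late libraries. The liver and control values did not overlap. Its log2 fold change was -1.45 ± 0.33 in mid (adjusted p = 0.0229) and -1.71 ± 0.39 in late liver (adjusted p = 0.0152). The related Foxo3 (chromosome 10, 42181841 to 42276755, minus strand) was low throughout, at 21.8, 21.3 and 13.6 CPM in control, 13.6, 10.5 and 11 CPM in mid and 13.2 and 12.0 CPM in late libraries. Control replicate 3, at day 18, was as low as the highest mid library, and the log2 fold changes of -0.71 ± 0.33 (mid, adjusted p = 0.12) and -0.65 ± 0.37 (late, adjusted p = 0.188) did not pass the threshold.

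Satb1 (chromosome 17, 51736187 to 51833290, minus strand), which encodes a chromatin organizer of thymocytes and naive T cells, had the largest fall of the 9. It measured 739, 875 and 713 CPM in control libraries, 119, 367 and 150 CPM in mid and 72.3 and 114 CPM in late libraries. No liver library of these groups came near the controls, and both late libraries were below all 3 mid libraries. The late mean of 93.1 CPM was 8.34-fold below the control mean of 776 CPM. The log2 fold change was -1.98 ± 0.48 in mid (adjusted p = 0.0248) and -3.04 ± 0.58 in late liver (adjusted p = 0.0123), and 2.1% of all tested genes had a lower log2 fold change in late liver. Late against mid liver gave -1.06 ± 0.54 for Satb1 (adjusted p = 0.91).

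Foxp1 (chromosome 6, 98925338 to 99522721, minus strand), a forkhead repressor that maintains T cell quiescence, measured 403, 552 and 440 CPM in control, 206, 404 and 281 CPM in mid and 172 and 309 CPM in late libraries. The late libraries were below all controls, and the highest mid library just overlapped the lowest control. The log2 fold changes of -0.70 ± 0.21 (mid, adjusted p = 0.0385) and -0.93 ± 0.25 (late, adjusted p = 0.0218) passed the threshold. Bach2 (chromosome 4, 32238804 to 32586108, plus strand), a repressor that competes with AP-1 factors, measured 119, 164 and 121 CPM in control, 82.2, 124 and 71.7 CPM in mid and 71.8 and 95.8 CPM in late libraries. Again the late and not the mid libraries were all below the controls, and its log2 fold changes of -0.56 ± 0.22 (mid, adjusted p = 0.0828) and -0.66 ± 0.25 (late, adjusted p = 0.0672) did not pass.

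Myb (chromosome 10, 21124935 to 21160984, minus strand) encodes a progenitor factor and was the single member that rose in edgeR, in late liver. Its control values were close together, at 15.7, 14.4 and 16.9 CPM, and the liver values spread widely, at 32.3, 132 and 89.5 CPM in mid and 49.3 and 188 CPM in late libraries. All 5 lay above every control. The log2 fold change was 2.14 ± 0.73 in mid (adjusted p = 0.0602) and 2.74 ± 0.78 in late liver (adjusted p = 0.0312), where 4.93% of all tested genes had a higher one. DESeq2 gave 2.17 in mid (adjusted p = 0.0017) and 2.77 in late liver (adjusted p = 0.000258). Id3 (chromosome 4, 136143497 to 136145755, plus strand), which encodes an inhibitor of E proteins, measured 78.8, 60.8 and 140 CPM in control, 374, 228 and 210 CPM in mid and 484 and 107 CPM in late libraries. The mid libraries were all above the controls, while late replicate 2 was within the control range. The log2 fold changes of 1.39 ± 0.49 (mid, adjusted p = 0.0599) and 1.21 ± 0.58 (late, adjusted p = 0.126) did not pass in edgeR and passed in DESeq2 (adjusted p = 0.0086 and 0.041).

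**Figure D2:**
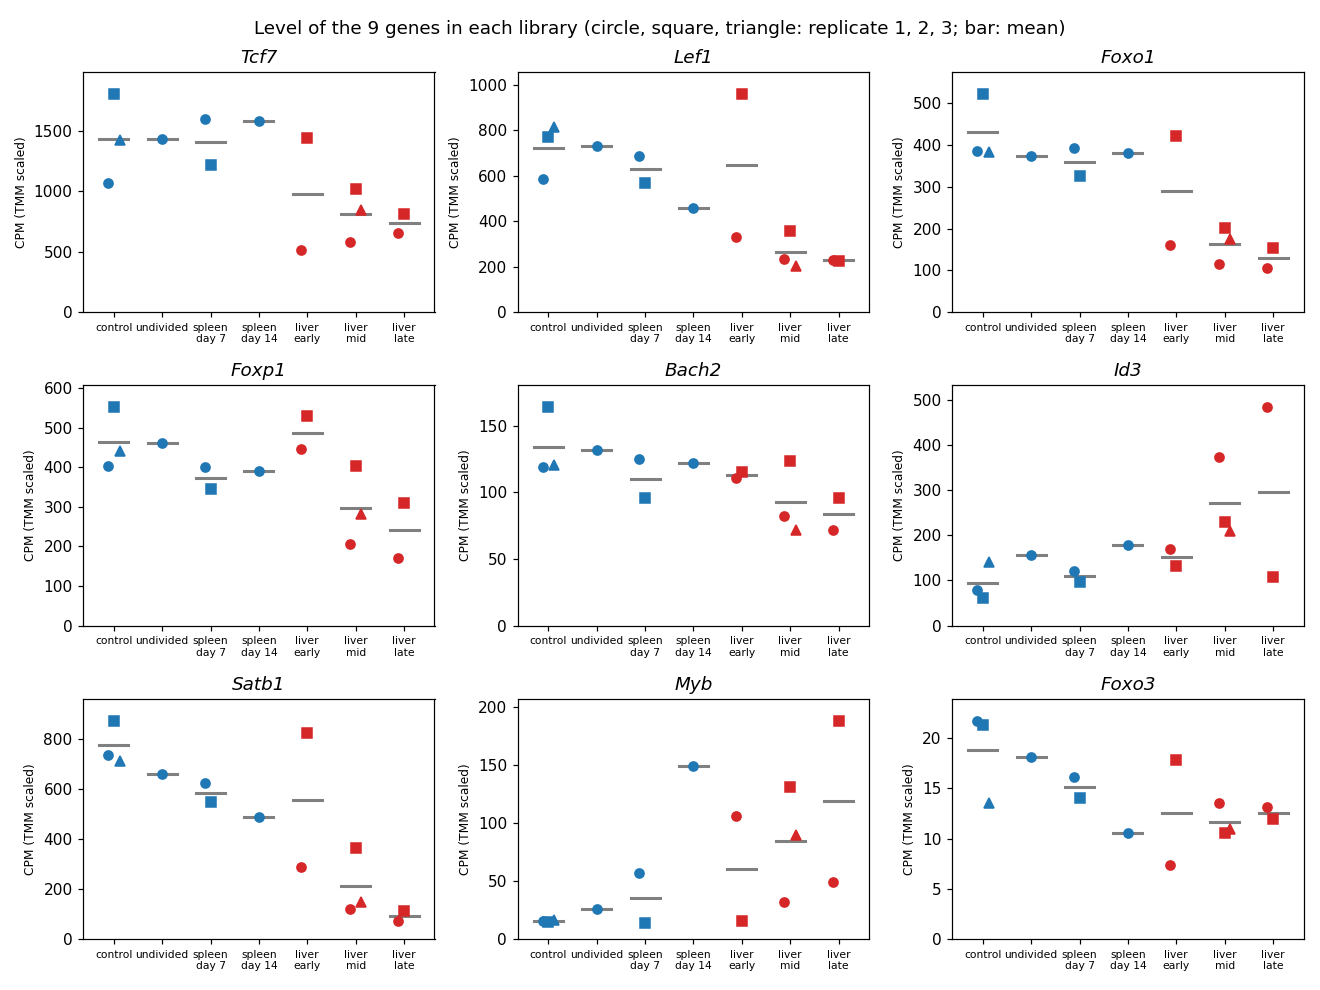
CPM (TMM scaled, linear y axis from 0) of each of the 9 genes in every library by group (x axis), in blue for spleen and red for liver, with marker shape for the replicate and a bar at the group mean. Mid and late liver lie wholly below control for Tcf7, Lef1, Foxo1 and Satb1 and wholly above it for Myb. The 2 early liver libraries differ from each other, and Myb is high in the spleen library of day 14.

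Without regard to size, 7 of the 9 genes had both late libraries below all 3 controls and 1 (Myb) had both above, where 28.2% of 15436 genes were entirely below and 27.8% entirely above. For mid liver, 4 of the 9 were entirely below (21.2% of all genes) and 2 (Myb and Id3) entirely above (21.0%). The sample titles hold 2 series, TG and XC, and the study sequenced in 2 batches, which the sources used here do not assign to libraries. Within TG (1 library a group), Satb1 was 739 CPM in control, 119 in mid and 72.3 in late liver. Within XC its means were 794, 258 and 114 CPM. Lef1 was 585, 232 and 231 CPM in TG and 792, 279 and 222 CPM in XC, and Foxo1 385, 115 and 104 CPM in TG and 454, 188 and 153 CPM in XC. Myb was 15.7, 32.3 and 49.3 CPM in TG and 15.6, 111 and 188 CPM in XC. In each series the order of control, mid and late means for these 4 genes was the same. For Id3, late liver and control were far apart in TG (484 against 78.8 CPM), and in XC late liver was close to the control mean (107 against 100.3 CPM). That XC mean joins a day 0 library (60.8 CPM) and a day 18 library (140 CPM), while the TG control was of day 0. The late library was of day 18 in TG and day 16 in XC, so series and day cannot be told apart there.

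The calls rested on few libraries. Leaving out late replicate 1 or late replicate 2, or control replicate 1, left none of the 9 past the threshold in late liver, and leaving out control replicate 2 left Foxo1 and Satb1. Without control replicate 3 Myb no longer passed in late liver (adjusted p = 0.0857) and Id3 did (log2 fold change 1.75, adjusted p = 0.029). In mid liver none remained without control replicate 1, control replicate 2, mid replicate 1 or mid replicate 3. With the XC libraries alone none passed in either comparison, with late log2 fold changes of -2.81 for Satb1, -1.84 for Lef1, -1.58 for Foxo1 and 3.58 for Myb. No fold change of the 9 changed sign in mid or late liver against control under any alternative tried.

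At day 7 in the liver, none of the 9 genes passed the threshold against control, and no gene of all 14600 did (0.0%) in edgeR, which gave 1493 genes at an unadjusted p under 0.05, while DESeq2 called 350 genes and none of the 9. The 2 early libraries stood apart from each other. Early replicate 1 had 287 CPM of Satb1, 331 of Lef1, 511 of Tcf7, 160 of Foxo1 and 106 of Myb. Early replicate 2 had 825 CPM of Satb1, 960 of Lef1, 1441 of Tcf7, 421 of Foxo1 and 15.2 of Myb. For Tcf7, Lef1, Foxo1 and Satb1 replicate 1 was below and replicate 2 at or above the lowest control, and Lef1 in replicate 2 was the highest of all libraries. Proliferation markers summed to 855 CPM in replicate 1 and 173 CPM in replicate 2, and the part of that difference in these values was not tested. With replicate 1 as the only early library, 4 of the 9 fell at an adjusted p under 0.05, namely Tcf7 (log2 fold change -1.66, adjusted p = 0.0034), Foxo1 (-1.60, 0.0059), Lef1 (-1.21, 0.0411) and Foxo3 (-1.26, 0.0398), where 3.61% of all genes fell and the lone library is assumed to vary like the other groups. With replicate 2 alone none did. Foxp1 and Bach2 differed little between the 2 libraries (446 and 529 CPM, and 111 and 115 CPM).

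**Figure D3:**
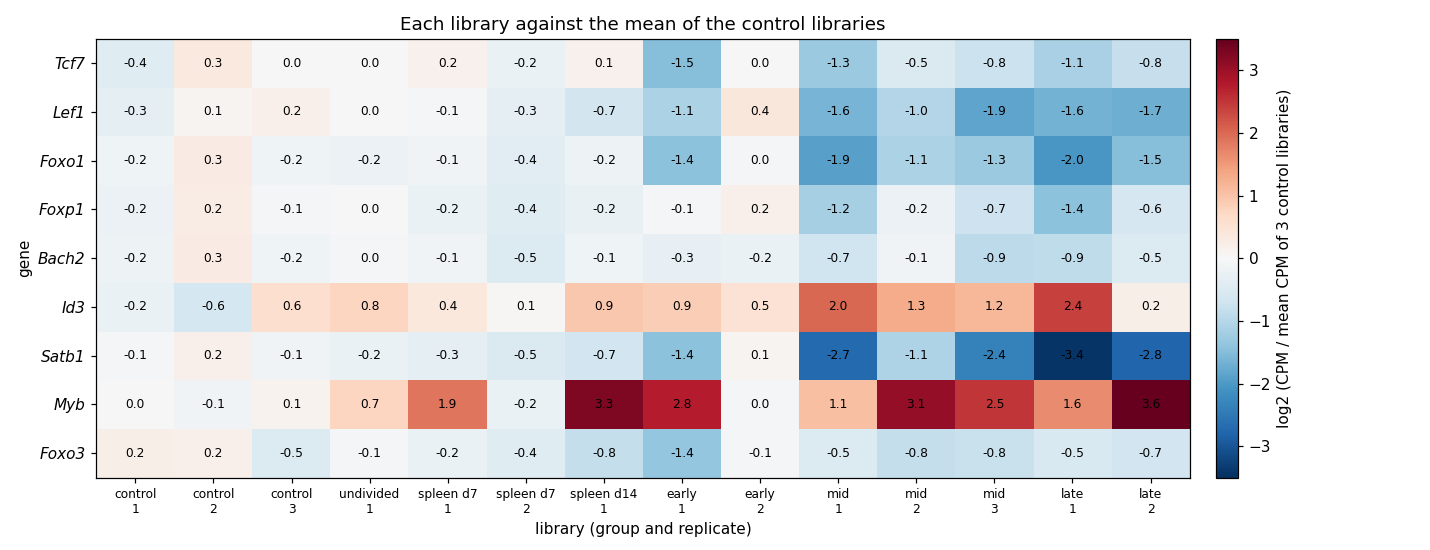
Log2 ratio of CPM to the mean of the 3 control libraries (colour, values printed to 1 decimal) for each gene (rows) in each of 14 libraries (columns, group and replicate). Early replicate 1 carries the pattern of the mid and late libraries except for Foxp1 and Bach2, and early replicate 2 stays within 0.51 of the control mean for every gene.

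In the spleens of leukemia-bearing mice, none of the 9 genes passed the threshold against control at day 7 or day 14. At day 7 the spleen libraries had 1596 and 1217 CPM of Tcf7, 688 and 569 of Lef1, and 393 and 326 of Foxo1, and the Satb1 values of 624 and 549 CPM were below the lowest control. At day 7 no gene of all those tested passed in edgeR (0.0% of 15449, with 969 at an unadjusted p under 0.05 and 11 in DESeq2). The single day 14 spleen library had 1580 CPM of Tcf7, within the control range. It had 459 CPM of Lef1, 381 of Foxo1 (lowest control 384) and 489 of Satb1, below their control ranges. Myb was at 150 CPM there, above all libraries but late replicate 2, with a log2 fold change of 2.78 ± 1.08 (unadjusted p = 0.0332, adjusted p = 0.84). In the day 14 comparison 1 gene was called, Gm14681, named here after its values were seen (0.00647% of 15449 genes, 795 at an unadjusted p under 0.05, and 11 in DESeq2). How many of all genes lay outside the control range in these spleen libraries was not computed, so the positions of the 9 only describe their values. Proliferation markers summed to 733 CPM in the day 14 spleen library and to 181 and 252 CPM at day 7.

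Liver was compared with spleen at matched times within leukemia-bearing mice. At days 13 and 14, the 3 mid liver libraries were all below the spleen library for Tcf7 (578 to 1015 against 1580 CPM), Lef1 (201 to 357 against 459), Foxo1 (115 to 200 against 381), Satb1 (119 to 367 against 489) and Myb (32.3 to 132 against 150), and all above it for Id3 (210 to 374 against 179). With 1 spleen library this was common, as 30.8% of 15436 genes had all 3 mid libraries below it and 28.8% all above. The log2 fold changes were -0.81 ± 0.45 for Tcf7, -0.73 ± 0.49 for Lef1, -1.09 ± 0.42 for Foxo1 and -1.07 ± 0.58 for Satb1, with adjusted p = 0.71 for each, and of the 9 Foxo1 had an unadjusted p under 0.05 (0.0264). 1 gene was called, again Gm14681 (0.00647%), with 897 genes at an unadjusted p under 0.05 and 17 in DESeq2. At day 7, liver against spleen gave log2 fold changes between -0.53 (Tcf7) and 0.79 (Myb), none past the threshold, and no gene was called in edgeR (0.0%, with 1391 at an unadjusted p under 0.05 and 56 in DESeq2). That comparison held the 2 unlike early libraries, and with early replicate 1 alone Tcf7 (-1.47, adjusted p = 0.0141) and Foxo1 (-1.17, adjusted p = 0.0342) were lower in liver, beside 1.37% of all genes, again with 1 library assumed to vary like the other groups.

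Undivided cells from day 18 leukemia-bearing spleens, which kept the dye that dilutes with each division, resembled controls in level. They had 1430 CPM of Tcf7, 732 of Lef1, 462 of Foxp1 and 131 of Bach2, all inside the control range, and 374 CPM of Foxo1 and 662 of Satb1, just below it. Id3 (156 CPM) and Myb (26.2 CPM) were above the highest control. How many of all genes lay outside the control range in this library was not computed, so these positions only describe the values. None of the 9 passed the threshold, and neither did any gene in edgeR (0.0%, with 182 at an unadjusted p under 0.05) or in DESeq2. One library cannot show that the groups are alike, and the log2 fold changes of the 9 had SEs of 0.31 to 1.02. The leukemia-free control of day 18 was within 0.59 log2 units of the mean of all 3 controls for each of the 9 genes. It is itself part of that mean, so this distance understates its distance from the day 0 libraries. Id3 (140 against 78.8 and 60.8 CPM) and Foxo3 (13.6 against 21.8 and 21.3 CPM) were furthest from the day 0 libraries.

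Late and mid liver did not differ for any of the 9 at this threshold, and no gene was called in edgeR (0.0%, with 780 at an unadjusted p under 0.05 and 34 in DESeq2). Apart from Satb1 (above), the log2 fold changes lay between -0.26 (Foxo1) and 0.60 (Myb).

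Tcf7 has 2 annotated transcripts on chromosome 11 (GENCODE vM21, minus strand, 52252371 to 52283014), which start at 52283014 (upstream) and 52282571 (downstream) and share a coding start, with 303 codons each. As annotated, they therefore do not separate long and short protein forms, and a share of full-length Tcf7 could not be computed. Whether the upstream transcript carries a longer coding sequence than annotated was not tested, so its share is not read as a protein form. The transcript of the upstream start shown above held 8.83, 22.1 and 21.9% of the Tcf7 counts in the control libraries, 12.1, 21.5 and 23.1% in mid and 15.4 and 24.6% in late libraries. The lowest value of each group was its TG library. Over the series the share was 12.1% ± 3.29 (SD, n = 3) in TG and 21.8% ± 3.90 (SD, n = 11) in XC. Early replicate 1, an XC library, lay within the TG range at 11.4%, and the other 10 XC libraries held 19.8 to 25.5%.

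Lef1, on chromosome 3 (plus strand, 131110471 to 131224356), has 8 transcripts in the files. The 3 coding transcripts annotated from 131110471, which begin their coding sequence at 131111472, encode the full-length form, whose N-terminal segment binds beta-catenin, and the coding transcript of the downstream start at 131112797 begins its coding sequence at 131112812 and is shorter (331 against 369 to 397 codons). Upstream transcripts held 43.6, 60.4 and 50.8% of Lef1 counts in control, 41.1, 53.9 and 57.1% in mid and 60.6 and 69.8% in late libraries. The late libraries had the 2 highest values. Mid and late together averaged 56.5% against 51.6% in control, a difference of 4.93 percentage points (exact two-sided permutation test over 8 libraries, p = 0.536, the smallest possible being 0.0357). A change in the use of the starts was not detectable in these 8 libraries. The spleen library of day 14 had the lowest share in XC (43.3%).

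**Figure D4:**
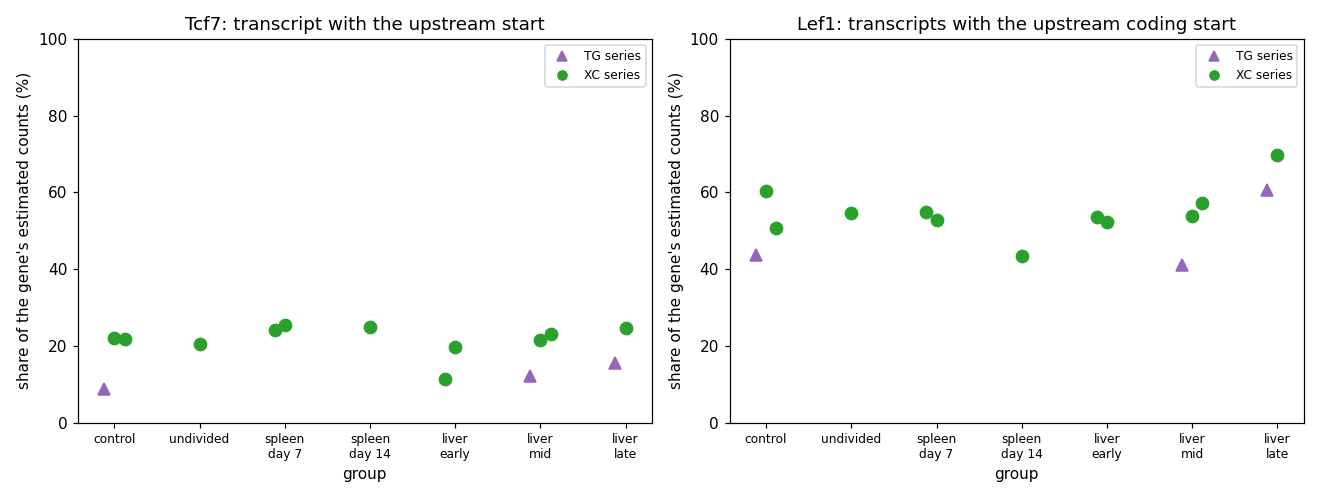
Share of the gene's estimated counts (y axis, %) in each library by group (x axis) for the Tcf7 transcript of the upstream start (left) and for the Lef1 transcripts of the upstream coding start (right), with triangles for the TG and circles for the XC series. The TG libraries hold the lowest Tcf7 share of their groups, and the 2 late liver libraries have the highest Lef1 shares.

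A further library of day 0 cells was primed with oligo-dT, and it differed from control replicate 1 for several of the 9, with no replicate to judge the differences and with its CPM scaled by the library total alone. Foxo3 was 98.1 CPM there against 21.8 CPM in control replicate 1, and Id3 was 28.0 against 78.8 CPM. Lef1 upstream transcripts were 16.7% of Lef1 counts against 43.6%, and the Tcf7 transcript of the upstream start was 2.43% against 8.83%.

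Some of the 9 genes share sequence with annotated neighbours, and whether counting used strand is not given in the sources used here. The share of 31-base words also found in another gene's transcripts was 14.6% for Lef1 (mostly antisense Gm43352), 8.0% for Foxo1 (antisense Gm20402), 6.37% for Bach2 (Bach2os) and 5.37% for Myb (Gm26577), and under 3% for the other 5, with none for Tcf7 and Id3. Of the genes that overlap the 9, Gm20696 at Foxp1 alone was among the genes to which deposited transcripts were assigned. Its counts were 0.196 to 9.75% of the Foxp1 count of a library. The other overlapping genes had no assigned transcripts, so their own levels could not be read. Whether reads from them were counted to the 9 was not tested.

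Relatives of the 9 factors moved in both directions in late liver. Of 14 paralogues, 11 were tested, 4 fell and 3 rose, with a median log2 fold change of -0.32. Over all 14600 genes 17.7% fell and 19.8% rose. The falls were Tcf7l2 (-2.80 ± 0.81), Bach1 (-2.34 ± 0.36), Foxp2 (-1.58 ± 0.42) and Foxo4 (-1.38 ± 0.48), and the rises were Mybl2 (4.75 ± 0.98), a cell cycle gene, Foxp3 (2.19 ± 0.66), the regulatory T cell factor, and Foxp4 (1.5 ± 0.34). The CD4 and regulatory T cell list (Cd4, Zbtb7b, Foxp3 and Il2ra) summed to 2.44 to 8.40 CPM in control. With Foxp3 included, its sum was 88.9 to 149 CPM in mid and late libraries. Il2ra and Zbtb7b also rose in late liver, while Cd4 had a fold change in the other direction that did not pass (-2.04 ± 1.16, adjusted p = 0.189). The part of these in the results was not tested. Id2, which like Id3 inhibits E proteins, was at 0.31 ± 0.24 (adjusted p = 0.324).

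Among 25 partners and regulators, 23 were tested, 6 fell and 3 rose, with a median of -0.58. These counts stand beside 17.7% of all genes lower and 19.8% higher, and no excess over those shares was tested. The TLE corepressors, which TCF1 and LEF1 recruit, split, with Tle2 (-4.71 ± 0.68) and Tle1 (-3.61 ± 0.73) lower, Tle3 (1.11 ± 0.26) higher and Tle4 at -0.75 ± 0.40 (adjusted p = 0.167). Bcl9l, a coactivator that bridges to beta-catenin, fell (-2.65 ± 0.57), Hdac1, a histone deacetylase, rose (1.22 ± 0.23), and Akt2, a kinase of FOXO proteins, rose (0.72 ± 0.22). The other falls were Sgk1, Mafk and Tcf12.

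Of the 18 naive-cell genes taken as downstream of FOXO1, TCF1 and LEF1, all were tested, 13 fell and 1 rose (Ctla2b, 1.58 ± 0.48), with a median of -1.65. The largest falls were of Ccr9, a gut homing receptor (-6.03 ± 1.09), Rapgef4, an exchange factor for RAP1 (-4.70 ± 0.82), and Tdrp (-3.64 ± 0.86). Among genes of stem-like exhausted CD8 T cells, 8 of 10 rose and none fell (median 2.43), with the largest rises for the chemokine gene Xcl1 (9.02 ± 1.84), Tnfrsf4 (6.61 ± 0.92) and Cd200 (6.53 ± 1.30). Among all 14600 genes, 17.7% fell and 19.8% rose in late liver against control. Both lists had been compiled with earlier results of these data known. All 8 proliferation markers also rose (median 5.24), and of the 9 T cell markers 3 rose and none fell.

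**Figure D5:**
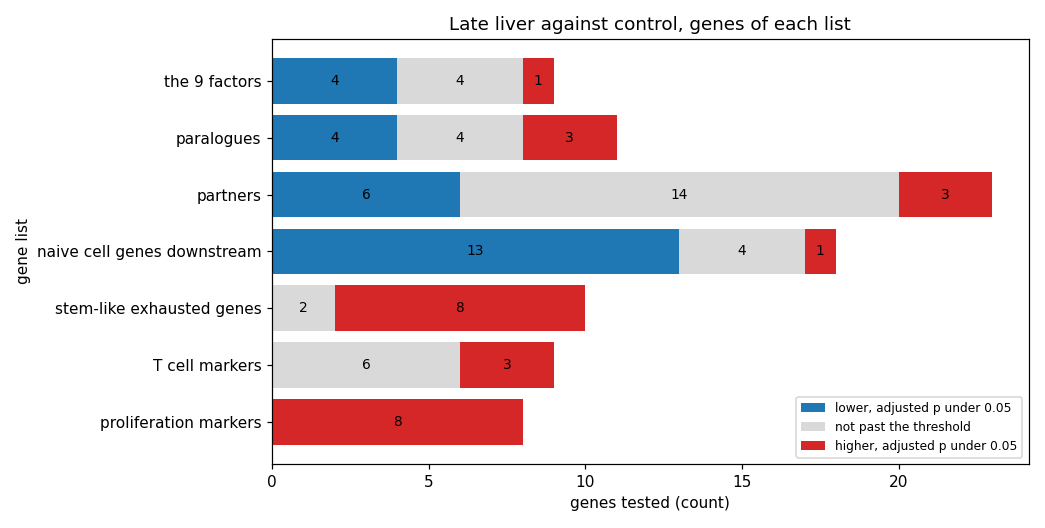
Number of tested genes (x axis) of each list (y axis) that were lower (blue) or higher (red) in late liver than in control at an adjusted p under 0.05, or did not pass (grey). Of the 9 factors 4 were lower and 1 higher, of the downstream naive-cell genes 13 were lower, and of the stem-like exhausted genes 8 were higher. Among all 14600 genes tested, 17.7% were lower and 19.8% higher.

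Over the 14 libraries, the genes with a profile most like that of Tcf7 among 5877 well expressed genes were Dusp7 (root mean square difference 0.201 in log2 CPM), Pglyrp2, Tle4, Pwwp2a and Fam193b. For Lef1 they were Ap3m2 (0.148), 4930523C07Rik, St8sia1, Arid4a and H2-K2, and for Foxo1 Otulinl (0.185), Chst10, Cyth1, Tnrc6c and Tmem71. Foxo3 was below the level needed to enter. Of the other members compared, Foxo1 was the nearest to both Tcf7 (0.313) and Lef1 (0.304), and Myb the farthest from both (1.66 and 1.94). These describe 14 libraries that share their groups and depth differences.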

How the data were processed

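TCR_Tg101_ were sorted from spleen and liver, and low-input RNA libraries were sequenced by the authors in 2 batches. The authors quantified transcripts with kallisto (bcl2fastq, mm10 and GRCm38 are also in the submitters' processing notes), and the kallisto version is not given in the sources used here. The authors deposited estimated counts per transcript, which are expected and not whole counts. The TPM deposited beside them are normalized for length and depth. Whether counting used strand is not given in the sources used here.

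For each gene, the estimated counts of its transcripts were added (GENCODE vM21, 98.18% of transcripts assigned, 98.95 to 99.25% of counts), as were the runs of a library, and the sums were rounded. Kallisto divides reads among similar transcripts, an error the tests do not include. Genes that reached 10 counts in 6 or more libraries were tested in R 4.3.3 by the robust two-sided quasi-likelihood test of edgeR 4.0.16, with TMM factors and with the series in the sample titles (TG or XC) as a covariate, in 1 model of the 11 control, undivided and liver libraries and 1 of all 14 libraries, which added the spleen libraries. P-values were adjusted by Benjamini-Hochberg over all genes tested, at 0.05. DESeq2 1.42.0, which the authors used, served as an alternative. Scripts were tested on simulated data. The deposited TPM gave levels between genes and an alternative scaling. Sequences are from RefSeq (GRCm38.p6). Python 3.11.15 with numpy 2.4.6, pandas 2.3.3 and scipy 1.17.1 made the other tables.

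The genes and lists were chosen with earlier results of these data known. Named genes are the 9 factors, from each other list up to 3 with the largest rise and 3 with the largest fall among those called in late liver, and the 5 genes nearest in profile to Tcf7, Lef1 and Foxo1 (mean log2 CPM of at least 5). A few other list genes were named after their values were seen. The alternatives were RLE factors, library totals alone, no count filter, no series term, first runs only, counts scaled from TPM, XC libraries alone, DESeq2 and each replicate left out.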

Additional observations from a re-analysis of the deposited data

Results flagged for a closer look

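At days 13 to 14, Tcf7 lay on opposite sides of the mean log2 CPM of the 3 control libraries in spleen and liver of leukemia-bearing mice. The spleen library was at 0.175 log2 units, and the 3 liver libraries lay between -1.28 and -0.463, a difference of -0.997 between liver and spleen. The spleen side is 1 library, at 1580 CPM inside the control range of 1067 to 1806 CPM, and the opposite directions were not themselves tested. With the series as a covariate, edgeR gave -0.017 for spleen at day 14 against control, on the same side as liver, and 3 of 10 alternatives gave a value above 0. The direct comparison of liver with spleen in edgeR's model gave a log2 fold change of -0.81 ± 0.45 for Tcf7 (adjusted p = 0.71).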

How the results depend on the processing

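Results of the 9 genes and the counts of called genes were recomputed under each alternative. For late and mid liver against control no direction of the 9 changed. The count of the 9 that were called was 5 in late liver and ranged from 0 to 5 with 1 replicate left out, and was 0 with XC libraries alone. In mid liver it was 4, ranged from 0 to 5 with 1 replicate left out, and was 0 with XC libraries alone, 1 without the series term (Satb1) and 7 with no count filter. All genes called were 5476 in late liver (0 to 4126 with 1 replicate left out, 2693 without the series term, 0 in XC alone) and 4565 in mid liver (0 to 3154, 1385 and 0). For early liver against control the 9 had 0 calls (0 to 4 with 1 replicate left out, 2 with no count filter), and all genes 0 calls (0 to 1902, 1480 with no count filter, 350 in DESeq2). For early liver against spleen at day 7 the 9 had 0 to 2 calls and all genes 0 to 973 with 1 replicate left out, 984 with no count filter and 56 in DESeq2. With no count filter, all genes called were 435 in late against mid (1 of the 9, Satb1), 756 in mid liver against spleen at day 14, 631 in spleen at day 14 against control (2 of the 9, Id3 and Myb), 642 in spleen at day 7 and 328 in undivided cells, where that setting tests 32768 genes in the 14 libraries. DESeq2 called 34, 17, 11 and 11 genes in the first 4 of these. The single call at day 14 was 0 with first runs only and without the series term in both comparisons, and 0 to 1 with 1 replicate left out against control. Spleen at day 7 against control ranged from 0 to 162 calls with 1 replicate left out.

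Log2 fold changes of the 9 that changed sign were those of comparisons with no call among the 9. With 1 replicate left out, early liver against spleen at day 7 ranged from -1.47 to 0.031 for Tcf7, -1.17 to 0.22 for Foxo1, -1.03 to 0.49 for Satb1, -1.21 to 2.17 for Myb, -1.03 to 0.23 for Foxo3, -0.93 to 0.61 for Lef1 and -0.15 to 0.23 for Bach2. Early liver against control ranged from -1.20 to 0.34 for Lef1, -0.52 to 2.27 for Myb and -1.26 to 0.010 for Foxo3. Late against mid ranged from -0.17 to 0.14 for Tcf7, -0.35 to 0.058 for Lef1, -1.23 to 0.69 for Id3, -0.10 to 1.03 for Myb, -0.040 to 0.16 for Foxo3 and -0.29 to 0.10 for Bach2. Spleen against control ranged from -0.11 to 0.11 for Tcf7 at day 14 and -0.68 to 1.38 for Myb at day 7. Undivided against control ranged from -0.13 to 0.73 for Myb, -0.12 to 0.0080 for Lef1 and -0.17 to 0.24 for Foxo3. Library totals alone gave -0.064 for Lef1 and -0.069 for Bach2 in early liver against spleen, -0.028 for Foxo3 in late against mid, -0.098 for Foxo3 in mid liver against spleen and -0.033 for Foxo3 in undivided cells. Without the series term, Foxp1 was 0.064 in early liver against control, Id3 0.12 in late against mid, Tcf7 0.14 in spleen at day 14, and Lef1 0.0086 and Foxo3 -0.068 in undivided cells. Counts scaled from TPM gave 0.014 for Tcf7 in spleen at day 14 and -0.25 for Foxo3 in undivided cells. The cause of these changes was not tested beyond the fewer libraries of each.

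The difference in the Lef1 share stayed above 0, from 0.919 to 9.36 points with 1 replicate left out, and from 1.75 to 5.34 otherwise. The planned test of a full-length Tcf7 share could not be run, since both transcripts share a coding start in the annotation used. No paired analysis was possible because the replicate numbers were given in accession order and pair no samples. With 1 to 3 libraries a group, the number of libraries and not depth limits each comparison.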

Other observations

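In mid liver against control, of the 18 naive-cell genes downstream of FOXO1, TCF1 and LEF1, 13 fell and 2 rose (Ctla2b and Cd28), with a median log2 fold change of -1.54. Of the 10 stem-like exhausted CD8 genes, 9 rose and none fell (median 2.36). Of the 23 partners tested, 7 fell and 3 rose, and of the 11 paralogues tested, 2 fell (Tcf7l2 and Bach1) and 2 rose (Mybl2 and Foxp4). Over all 14600 genes 13.9% fell and 17.3% rose in that comparison. All 8 proliferation markers rose.

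In late liver, none of the 4 B cell markers tested and none of the 3 NK cell markers tested passed the threshold, and of the 6 myeloid markers Csf1r fell. In mid liver, 2 of the 4 B cell markers fell (Ms4a1 and Cd79a), as did 4 of the 6 myeloid markers (the largest falls being of Adgre1, Csf1r and Lyz2) and all 3 erythroid markers tested, while of the NK cell markers Eomes rose and Tyrobp fell. Eomes is also in the list of stem-like exhausted CD8 genes. The paper reports that its protein rose in TCR_Tg101_ after they met antigen and fell again as they divided further. Which cells its RNA came from was not tested. None of the 9 T cell markers passed in mid liver. The part of these markers in the results was not tested. Summed B cell markers were 12.3 to 44.6 CPM over all 14 libraries. Serpina1a was at 0 in all 3 controls.

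Repeat runs of 1 library, available for 11 libraries, gave similar levels in the median. The median absolute log2 ratio between runs was 0.0112 for Tcf7, 0.013 for Satb1 and 0.0823 for Foxo3, the largest of the 9. In single libraries the ratio reached 0.313 for Myb, 0.29 for Foxo3, 0.288 for Lef1 and 0.256 for Id3. It was at most 0.161 (Bach2) for the remaining genes.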
